A study of Mus musculus with 2 samples.

Results

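Rhox5, Rhox6 and Rhox9 are X-linked homeobox genes of the Rhox (reproductive homeobox) cluster. They are 3 of the 18193 genes measured on a pair of Affymetrix mouse arrays. Each is named alone by a single probe set, and the members were chosen by their measured losses between the conditions, so every value of that contrast is given as a description, without a test. One array held RNA of undifferentiated PGK12.1 cells, a female embryonic stem cell line derived from the blastocysts of a 129 mother and a (129 X PGK)F1 father, at passages 14-18. The other held RNA of the same line, over the same passages, differentiated for 15 days as embryoid bodies, which are aggregates of many cell types. Stem cells had been kept with leukemia inhibitory factor on MEF (mouse embryonic fibroblast) feeders, and feeders were depleted on gelatin before collection or differentiation. The study asked how expression of the X chromosome changes on differentiation, from a state with both X chromosomes active to one with a single active X.

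Rhox genes encode homeodomain transcription factors and lie side by side on the X chromosome. They are best known from testis, epididymis, ovary and placenta, and several are also transcribed in embryonic stem cells. DNA methylation keeps much of the cluster silent in somatic tissues of the embryo. Rhox5, long known as Pem, is the founding member, is abundant in stem cells and extraembryonic tissues, and is transcribed from a distal and a proximal promoter, the latter androgen-dependent in Sertoli cells and the epididymis. Rhox6 (Psx1) and Rhox9 (Psx2, Gpbox) are closely related genes known from placenta and germ cells.

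The sequence that precedes Rhox5 is shown because CpG sites are what DNA methylation acts on. It is the stretch of 250 bases before the annotated start of the gene (RefSeq, GRCm38.p6, chrX:37754358-37754607, plus strand, upstream of the first exon), with each CpG in capitals.
Rhox5: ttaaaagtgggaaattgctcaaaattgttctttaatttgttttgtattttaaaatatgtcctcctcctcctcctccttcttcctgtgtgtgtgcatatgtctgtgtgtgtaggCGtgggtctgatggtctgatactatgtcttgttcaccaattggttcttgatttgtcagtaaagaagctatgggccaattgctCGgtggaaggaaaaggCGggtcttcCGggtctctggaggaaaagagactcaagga

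The Rhox5 stretch held 4 CpG sites, at 137, 55, 39 and 30 bases before the start, and 42.8% G or C. The median was 6 CpG sites over 32851 RefSeq promoter windows of the same length and 4.5 over the 28 Rhox windows in that set, which ran from 0 to 10. A match to the CCAAT box (CCAAT) was found at 3 places on both strands, starting 102, 99 and 64 bases before the start. The first and second of these overlap, on opposite strands. Of all windows, 33.8% hold CCAAT. The letters CCGGAA, a core bound by ETS factors, were present once, on the minus strand, and cover the last CpG, and 12.0% of all windows hold them. The GC box, spelled GGGCGG, was not in this window, and 32.7% of all windows hold it. The TATA box, spelled TATAAA, was not in it either, and 12.4% of all windows hold it. These matches are letters only, and neither methylation nor the start site in use was measured. Rhox6 and Rhox9 are named without a sequence.

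All 3 genes had lower signals at day 15 than in undifferentiated cells. Rhox5 measured 2311 in undifferentiated cells and 694 at day 15 (signal intensity), so that 30.0% of its signal was left. Rhox6 measured 393 and 54.3, with 13.8% left. Rhox9 measured 395 and 47.7, with 12.07% left. Rhox6 and Rhox9 thus gave nearly the same pair of readings, while Rhox5 kept a larger share of its signal. Signals of different probe sets are not transcript amounts and are not set against each other as levels.

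**Figure D1:**
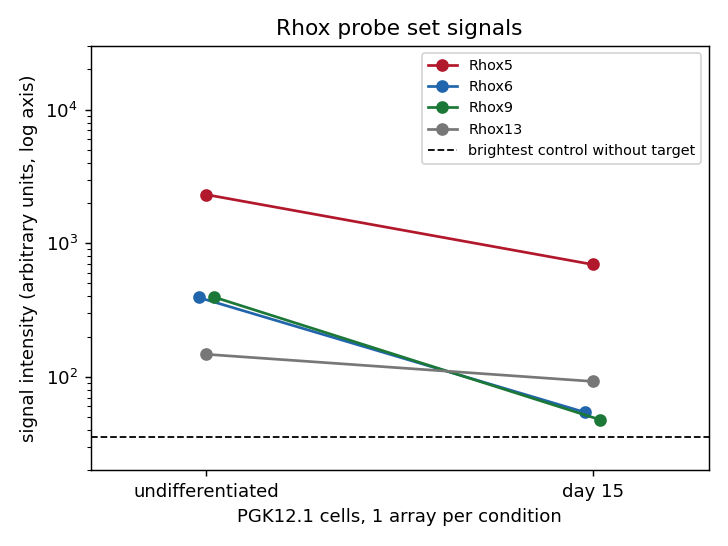
Signal intensity (log axis) of the Rhox5, Rhox6, Rhox9 and Rhox13 probe sets on the undifferentiated and the day 15 array, 1 array each; points of Rhox6 and Rhox9 are shifted sideways to keep both visible. The dashed line is the brightest bacterial control taken to be without target (35.6), and at day 15 Rhox6 (54.3) and Rhox9 (47.7) sit just above it while Rhox5 (694) stays far above.

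As ratios of signals, the loss was 3.33-fold for Rhox5, 7.23-fold for Rhox6 and 8.29-fold for Rhox9. On the log2(signal + 16) scale used for all counts, where the added 16 damps differences of dim genes, the differences of day 15 minus undifferentiated were -1.71, -2.54 and -2.69. Because each condition has a single array, replicate error is unknown and nothing was tested. A difference is described by its size, and a gene counts as lower or higher when it differs at least 2-fold on that scale. Rhox6 and Rhox9 differed from each other by 0.15. Rhox5 lay 0.83 from Rhox6 and 0.98 from Rhox9. Probe sets that name the same gene, where a gene has several above the filter (5157 genes), scatter around their gene's mean difference with an SD of 0.53. That SD is taken around a gene's mean and not between a pair of probe sets, and it holds no variation between cultures, so it does not settle whether Rhox5 differs from the other two. With a pseudocount of 64 the gaps to Rhox5 were 0.30 and 0.39.

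Each member has only 1 probe set, so no second reading of the same transcript was available to set beside it. The probe sets of Rhox6 and Rhox9 were designed on accessions that RefSeq lists as transcripts of those genes, and that of Rhox5 on another accession. Whether the Rhox6 and Rhox9 probe sets each bind the transcript of the other gene was not tested.

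The distance from background differed among the members. The 15 Phe, Thr and Trpn probe sets, bacterial controls picked by name, reached at most 35.6. They were taken to be without target RNA, which was not checked. Rhox5 was 64.9 times that bound in undifferentiated cells and 19.5 times at day 15, so its transcript was still read clearly after differentiation. Rhox6 lay 11.0 times above the bound and then 1.53 times, and Rhox9 11.1 times and then 1.34 times. The day 15 readings of Rhox6 and Rhox9 therefore stand close to where a probe set without target can read.

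Of the 11960 genes that passed the expression filter, 8.41% had a loss of 2-fold or more at day 15, and of the 418 X-linked genes among them 14.4%. The 3 members belong to both groups. Because the contrast chose them, that placement supports nothing further. By size of loss Rhox9 was at place 14 and Rhox6 at place 19 among all genes above the filter, and Rhox5 at place 145. The place of Rhox5 depended on the setting, from 83 with the filter at the 75th percentile to 259 with quantile normalization, while in the settings whose filter they passed Rhox9 lay between places 11 and 21 and Rhox6 between 14 and 26. Among X-linked genes Rhox9 was at place 3 and Rhox6 at place 4, after Glod5 (log2 difference -3.79) and the amino acid transporter gene Slc38a5 (-2.75). Rhox5 was at place 16, between Alg13 (-1.71), of N-glycan synthesis, and the kinase gene Pim2 (-1.71). X-linked genes had a median of -0.18, and all genes above the filter one of 0.00052.

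**Figure D2:**
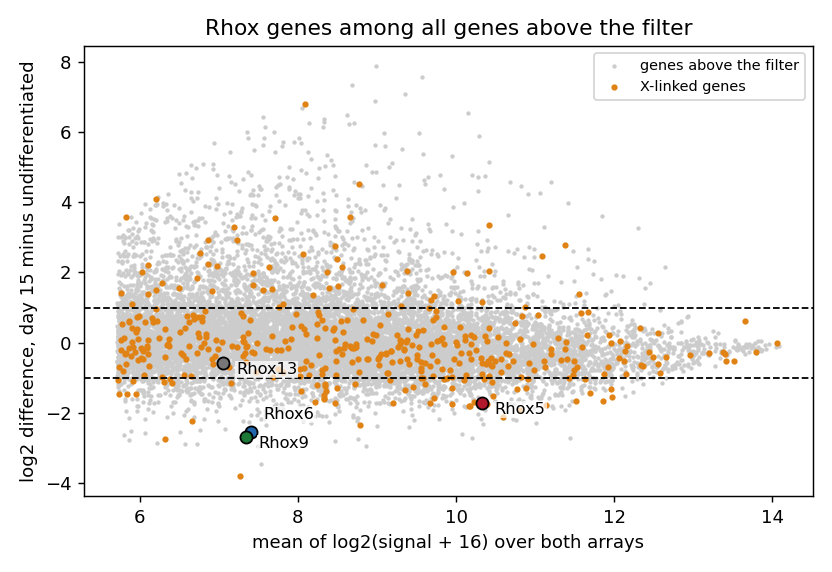
Log2 difference of day 15 minus undifferentiated against the mean of log2(signal + 16) over both arrays, for all 11960 genes above the filter (grey), the 418 X-linked genes (orange) and the 4 measured Rhox genes; dashed lines mark 2-fold. Rhox6 (-2.54) and Rhox9 (-2.69) lie almost on top of each other near the lower edge, Rhox5 (-1.71) lies at a brighter mean, and Rhox13 (-0.59) stays within 2-fold.

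Rhox13, which encodes a homeodomain protein of testicular germ cells, is the only other Rhox gene with a probe set naming it alone. It measured 147.5 in undifferentiated cells and 92.5 at day 15, a 1.59-fold lower signal and a log2 difference of -0.59, which did not reach 2-fold. RefSeq lists 33 protein-coding Rhox genes, so 29 of the cluster are not measured here, among them the repeated Rhox2, Rhox3 and Rhox4 copies and Rhox8 and Rhox10. Among the 4 measured Rhox genes, 3 reached a 2-fold loss and 0 a 2-fold gain. Those 3 are the members, picked for their losses, so the choice fixed this count and it does not describe the cluster. It is therefore not set against the 8.41% of all genes, or 14.4% of X-linked genes, above the filter with such a loss. Rhox13 is the only measured Rhox gene that was not picked in this way. In the RefSeq order Rhox5, Rhox6, Rhox9 and Rhox13 follow each other in that sequence, with unmeasured Rhox genes between Rhox6 and Rhox9 and between Rhox9 and Rhox13. Along this order the difference went from -1.71 to -2.54, -2.69 and -0.59.

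None of the 10 nearest measured flanking genes had a loss as large as Rhox6 or Rhox9, which were chosen for their losses. Of these 10, 5 on each side of the cluster, 7 passed the filter, with a median of -0.32. At least 2-fold lower was 1 of the 7, and 1 was at least 2-fold higher. Over all genes above the filter 8.41% were lower and 16.5% higher, and of X-linked genes 14.4% were lower. These counts do not set the flanks apart from other genes. Before the cluster, Gm9 measured 93.7 and 39.6 (log2 difference -0.98), Rnf113a1, a RING finger gene, 372.9 and 188.8 (-0.93), the NADH dehydrogenase subunit gene Ndufa1 6068 and 5064 (-0.26) and Nkap 577 and 461 (-0.32). After it, Zbtb33, which encodes the methyl-CpG-binding protein Kaiso, measured 648 and 763 (0.23). Lamp2, a lysosomal membrane protein gene, was 4.22-fold higher (653 and 2758), and Cul4b, a ubiquitin ligase scaffold gene, 2.04-fold lower (4489 and 2205). These are representative probe sets. Differences over all probe sets above the filter ran from -1.48 to -1.02 for Cul4b, from -0.96 to -0.32 for Nkap and from 2.05 to 2.54 for Lamp2. Below the filter lay Akap14 (37.4 and 1.90, log2 difference -1.58), Tmem255a (12.3 and 20.7) and Atp1b4 (-0.22). The Akap14 difference was the nearest to that of Rhox5 among the 10, at signals close to or under the control bound.

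**Figure D3:**
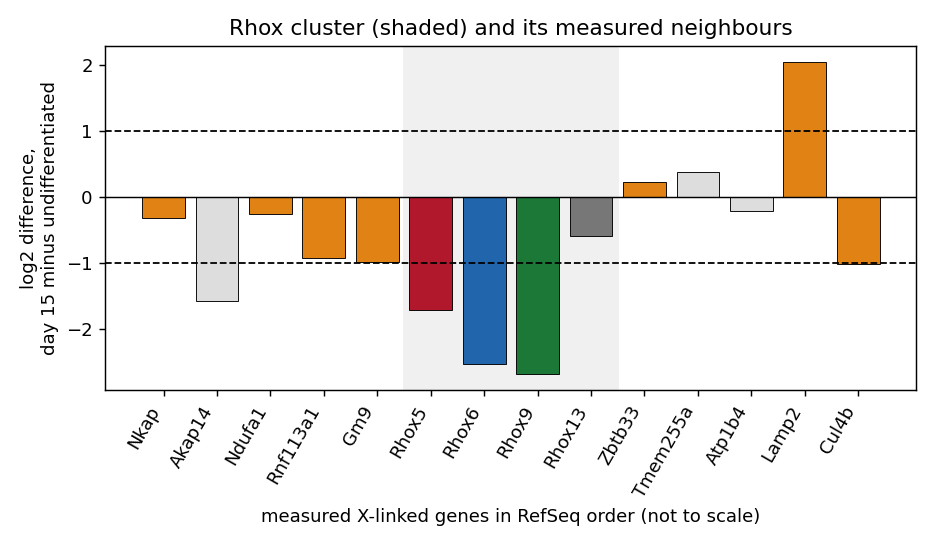
Log2 difference of day 15 minus undifferentiated for the 4 measured Rhox genes (shaded) and the 5 nearest measured genes on each side, in RefSeq order and not to scale; light grey bars are genes below the filter and dashed lines mark 2-fold. The 3 members have the lowest bars, from -1.71 to -2.69, while Lamp2 on the far side stands at 2.05.

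The genes with the most similar pair of readings were found by the Euclidean distance between the pairs of log2(signal + 16) values, over 2 arrays. This likeness is of readings, not of transcript amounts, and it uses the values by which the members were chosen. Rhox6 and Rhox9 were each other's nearest gene (distance 0.14). Rhox6 was next to the zinc finger genes Zfp953 (0.21; signals 346 and 60.4) and Zbtb32 (0.25; 328 and 56.7), and a second Zbtb32 probe set above the filter had a log2 difference of 0.026. Rhox9 was next to Zp3, a zona pellucida gene of the oocyte (0.27; 480 and 49.1), and to Zfp953 (0.32). For Rhox5 the nearest were Ebp, an X-linked sterol isomerase gene of cholesterol synthesis (0.093; 2445 and 718), Fgf4, a growth factor gene of stem cells (0.13; 2115 and 713), and X-linked Nkrf (0.15; 2137 and 649). A second Nkrf probe set above the filter had a difference of 0.10. Fgf4 has 3 probe sets above the filter, with differences from -1.55 to -0.027. Nkrf lies near Rhox5 on the X, with 7 measured genes between them. With only 2 values per gene, many genes come close to any given pair.

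The labelled cell type was checked on 14 stem cell markers, which all passed the filter on the representative probe set. Of these, 10 were at least 2-fold lower at day 15 and 0 higher, with a median of -1.33, against 8.41% lower and 16.5% higher over all genes above the filter. Pou5f1, which encodes OCT4, measured 7838 and 2932, and Nanog 5470 and 2835, so stem cell transcripts were still read at day 15. Utf1, a chromatin-associated stem cell gene, was at -1.71 on its representative probe set, as Rhox5 was, and at -1.19 on another. On the representative probe sets Lin28a (-2.10), an RNA-binding protein gene, and Sall4 (-1.80), a zinc finger factor gene, had larger losses than Rhox5, but their second probe sets above the filter read -1.29 and -0.60. No representative probe set of the 14 had a larger loss than Rhox6 or Rhox9. Klf2, a Kruppel-like factor gene, had a difference of -1.56. In embryoid bodies, fewer cells that carry a transcript and less of it in each cell cannot be told apart.

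Genes of DNA methylation and histone H3K9 methylation, the systems that act on the Rhox cluster, were given by a list of 16, of which 14 passed the filter. Of these 5 were at least 2-fold lower (8.41% of all genes were) and 1 higher (log2 difference 1.43), with a median of -0.93. The other 8 stayed within 2-fold. The genes named next had the largest differences of the list, and all are of DNA methylation, so they do not describe the H3K9 genes. The de novo methylation genes Dnmt3l (3556 and 784, difference -2.16) and Dnmt3b (4572 and 1243, -1.87) had losses larger than that of Rhox5 (-1.71), and a second Dnmt3b probe set above the filter read -2.68, past Rhox6 (-2.54). Uhrf1, which guides maintenance methylation, was at -1.49 on its representative probe set and at -2.22 on another. Tet1, a 5-methylcytosine oxidase gene, was at -1.58 on its representative probe set, and its 3 probe sets above the filter ranged from -2.08 to 0.59.

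Germ line genes that are known to be kept silent by DNA methylation had losses on the scale of Rhox6 and Rhox9 only in part. Of 13 above the filter 7 were at least 2-fold lower and 0 higher, with a median of -1.01, beside 8.41% lower over all genes. Tdrd12, of the piRNA pathway (919 and 119, difference -2.79), and Dppa3, a maternal factor gene that protects methylation (1101 and 153, -2.73), had losses larger than Rhox9 (-2.69). Hormad1 (-1.48), of meiotic chromosomes, and Tex19.1 (-1.43), of germ cells and placenta, had smaller losses than Rhox5. Among 9 primordial germ cell markers, which share Dppa3, Ddx4 and Dazl with that list, 4 were at least 2-fold lower and 0 higher, with a median of -0.94, beside the same 8.41%. Beside Dppa3 these were Tfap2c (-1.42), the RNA helicase gene Ddx4 (-1.22) and the receptor gene Kit (2.05-fold, with a second probe set at a difference of -0.57).

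Markers of tissues in which Rhox genes are also known, and of other cell types in the bodies, were higher in larger number than lower. Over all genes above the filter, 16.5% were at least 2-fold higher and 8.41% at least 2-fold lower. At least 2-fold higher were 4 of 9 trophoblast markers above the filter, and 2 were as much lower, with a median of 0.85. Among them were Gata3 (at least 3.76-fold higher), Plac1 (4.60-fold) and Krt7 (at least 2.26-fold), while Tfap2c was 2.74-fold lower. A fold is given as at least a value where the dimmer signal lay below 35.6. Of 14 visceral and parietal endoderm markers 9 were higher and 0 lower (median 2.09). On representative probe sets Afp was at least 24.4-fold higher, Ttr at least 15.9-fold, Gata6 at least 23.1-fold and Col4a1 38.2-fold. Over all probe sets above the filter log2 differences ran from 2.91 to 5.70 for Afp and from 3.37 to 4.96 for Ttr. They ran from 3.39 to 4.39 for Gata6 and from 4.06 to 5.16 for Col4a1. Of 5 Sertoli and gonadal somatic markers above the filter 3 were higher and 0 lower, namely Clu (5.08-fold), Gata4 (5.23-fold) and Wt1 (3.46-fold). Gata4 is on the endoderm list as well. The Sertoli and gonad genes Amh, Fshr and Nr5a1 lay below 35.6 on both arrays. Sox9, on the same list, measured 58.1 and 62.2 and stayed within 2-fold. Dhh was below the filter, at 7.1 and 51.8. Inha measured 53.8 and 88.1. Rhox5 was lower at day 15, and the endoderm genes Afp, Ttr, Gata6 and Col4a1 were higher in the same RNA. Which cells carried Rhox5 was not tested.

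Of 10 fibroblast genes 9 were higher and 0 lower (median 5.49, beside 16.5% higher over all genes), with Col1a1 at least 217-fold, Col3a1 267-fold, Lum at least 74.7-fold and Postn at least 104-fold. The summed signal of the 10 was 5327 in undifferentiated cells and 52253 at day 15, that of the 14 stem cell markers 72541 and 37105, that of 16 endoderm markers 3600 and 23291, that of 11 trophoblast markers 1698 and 1275, that of 9 germ cell markers 11895 and 6340 and that of 9 Sertoli and gonad markers 592 and 2304. Such sums add signals of different probe sets, so the brightest weigh most. Ifitm3 (7523 and 4670) made up most of the germ cell sum on both arrays. Tfap2c (1232 and 449) enters both the trophoblast and the germ cell sum. Its fall was larger than that of the whole trophoblast sum, so the other trophoblast markers together rose. While the Rhox signals fell, the stem cell, trophoblast and germ cell sums fell, and the fibroblast, endoderm and Sertoli and gonad sums rose. The part of these shifts in the Rhox losses was not tested.

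Other homeobox genes and X-linked genes of restricted expression were given by a list each. Of 6 paired-like homeobox genes above the filter, a class related to the Rhox homeodomain, 3 had gains and 2 had losses past 2-fold (median 0.46, beside 16.5% and 8.41% of all genes). Prrx1 was at least 18.8-fold higher, Pitx1 at least 5.94-fold and Prrx2 at least 1.88-fold (log2 difference 1.19), and Otx2 was 2.42-fold lower. Of 7 X-linked genes of restricted expression above the filter, 2 were at least 2-fold lower, beside 14.4% of all X-linked genes, and 0 higher. All 7 differences were below 0, from -1.13 to -0.11 (median -0.81). The genes called lower were Nr0b1, a nuclear receptor gene of stem cells (2056 and 933, 2.20-fold), and the placental homeobox gene Esx1 (60.4 and 20.6, at least 1.70-fold, log2 difference -1.06). Nxf3 (123.5 and 56.5) was 2.19-fold lower as a ratio of signals but at -0.94 on the log2(signal + 16) scale, short of the 2-fold call there, and Tktl1 was at -0.81. A list of 2 genes reported to be regulated by RHOX5 in Sertoli cells held the netrin receptor gene Unc5c and the insulin gene Ins2. Unc5c was 4.76-fold higher (86.9 and 414), and a second probe set had a log2 difference of 3.53. Ins2 lay below the control bound on both arrays (14.1 and 21.3). Regulation of either gene by RHOX5 was not tested here.

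How far the losses depended on scaling was read from the bacterial hybridization controls. The 18 control probe sets had log2 ratios of day 15 over undifferentiated from 0.19 to 0.60 (mean 0.39). Rescaling day 15 on them made the losses larger, to -2.09 for Rhox5, -2.83 for Rhox6 and -2.97 for Rhox9, and moved the median of all genes to -0.36. Quantile normalization gave -1.68, -2.70 and -2.84, with a median of all genes of -0.13. Pseudocounts of 1 and 64 set the range for the dim pair: Rhox6 lay at -2.83 and -1.95 and Rhox9 at -3.02 and -2.04. Rhox5 moved little, between -1.73 and -1.65. In all of these settings the 3 differences were past -1. Rhox13 stayed within 2-fold in each, from -0.43 to -0.92.

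**Figure D4:**
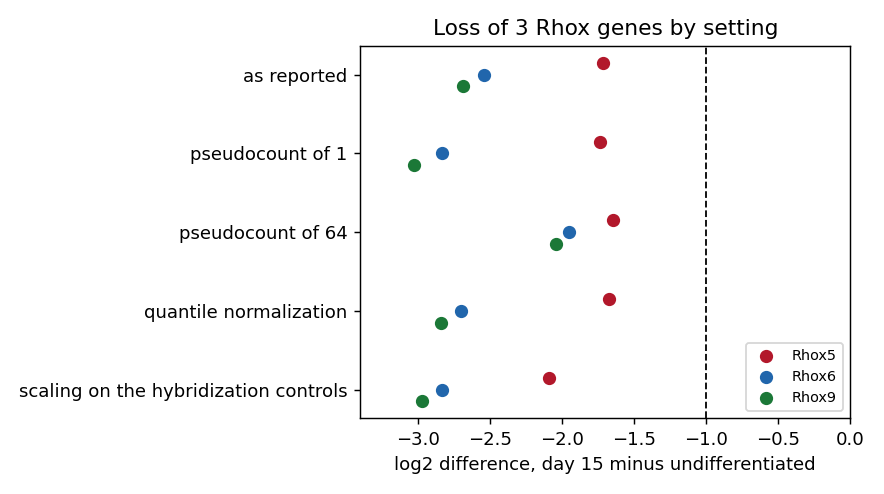
Log2 difference of day 15 minus undifferentiated of Rhox5, Rhox6 and Rhox9 as reported and under 4 other settings; the dashed line marks 2-fold. All points lie left of it, with Rhox5 between -2.09 and -1.65, Rhox6 between -2.83 and -1.95 and Rhox9 between -3.02 and -2.04.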

How the data were processed

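The authors deposited signal intensity on a linear scale, with a value for each probe set on each of 2 arrays. The authors' summarisation software and genome build are not given in the sources used here, and no detection calls were used. This intensity had equal means on both arrays (250.0) after 2% of probe sets was trimmed from each tail, so the arrays had been scaled. Of 45101 probe sets, 64 controls were set aside, and the platform annotation named 34945 with 1 gene, 932 with several (not used) and 9160 not at all. Symbols and X linkage came from the RefSeq gene table of GRCm38.p6, used for names and gene order. Python 3.11.15 with pandas 2.3.3 and NumPy 2.4.6 computed log2(signal + 16) and its difference. The brightest probe set represented a gene, and a gene passed the filter if its mean reached the median of the probe sets (a signal of 36.5). Nothing was tested, since each condition has 1 array, whose number limits the precision; code was checked on simulated data. Members and gene lists were chosen with earlier results of these data known. Named were the members, the other Rhox gene, 5 neighbours on each side and the 3 nearest genes of each member by readings. Up to 4 listed genes with the largest difference were named as well. Pou5f1, Nanog, Glod5, Slc38a5, Alg13, Pim2, Amh, Fshr, Nr5a1, Sox9, Dhh, Ifitm3, Ins2, Dap and Lys were added after their values were seen.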

Additional observations from a re-analysis of the deposited data

How the results depend on the processing

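Each alternative was compared with the reported value, and a log2 difference was taken as moved when it shifted by more than 0.53, the scatter between probe sets of 1 gene. Of 42 such comparisons 37 lay within that or within 1.5 times the reported count. The exceptions were Rhox6 (-1.95) and Rhox9 (-2.04) with a pseudocount of 64, which damps dim signals; the count of Rhox genes at least 2-fold lower with the filter at the 75th percentile (1, since Rhox6, Rhox9 and Rhox13 no longer passed); and, with scaling on the hybridization controls, the counts of genes (2248) and X-linked genes (114) at least 2-fold lower, against 1006 and 60. Leaving out probe sets whose suffix is a, s or x, or taking the mean over probe sets, left the members' values and the count of lower Rhox genes as they were. Each measured Rhox gene has 1 probe set without such a suffix, so these comparisons, counted among the 37, could not differ. Removing the filter could not change that Rhox count either, since all 4 genes already passed. No paired analysis was possible because each condition has 1 array, and for the same reason no replicate could be left out. Signal over background limits Rhox6 and Rhox9 at day 15, which read 1.53 and 1.34 times the brightest control taken to be without target.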

Other observations

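The bacterial Dap and Lys control probe sets, 6 of each, read in opposite ways on the 2 arrays. Dap signals lay between 4158 and 15243 on the undifferentiated array and between 0.40 and 18.1 on the day 15 array. Lys signals lay between 0.40 and 15.3 on the undifferentiated array and between 5124 and 11560 on the day 15 array. Neither control entered any scaling of the Rhox values.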
